A study of Mus musculus with 2 samples.

Results

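The tumour necrosis factor (TNF) superfamily joins the ligands named Tnfsf with the receptors named Tnfrsf, together with the members that keep older symbols: Tnf, Lta, Ltb, Cd40lg, Cd70 and Fasl among the ligands, and Cd40, Cd27, Fas and Ltbr among the receptors. Members were chosen by symbol and not by their measured values, but with earlier results of these data known. Tnfrsf4, Tnfrsf17 and Tnfrsf18 were not taken. This gave 40 of the 27933 gene symbols in the tables: 17 ligands, 21 receptors, the antisense gene Tnfsf13os and the joined gene model Tnfsfm13. Of these, 28 members (11 ligands and 17 receptors) had at least 50 unique molecular identifiers (UMIs, counted transcripts) in the kept cells of both libraries together, 9 had from 1 to 49, and 3 had none.

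Transcripts were counted in single immune cells from lymph nodes of mice with a heart graft, using a droplet method that reads the 3′ end of each transcript. The allogeneic library came from BALB/c recipients of a C57BL/6 heart, which carries tissue antigens foreign to the recipient. The syngeneic library came from BALB/c recipients of a BALB/c heart, so every recipient in both groups was BALB/c and had undergone grafting, and all mice were 6 to 8 weeks old. Each group had 1 library, and the sources used here do not say how many mice it came from. No difference therefore has a replicate check or a p-value, and all intervals are exact 95% intervals for counting error only.

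The ligands of this family are trimers, mostly anchored in the membrane of one cell, which cluster receptors on a neighbouring cell. Receptors with a death domain, such as TNFR1 and Fas, can start cell death, and the others recruit TRAF adaptors that switch on NF-kB and MAP kinase pathways. In the lymph node the family is known for CD40 ligand help from T cells to B cells, for survival of B cells on BAFF, for costimulation of T cells through CD27 and 4-1BB, and for upkeep of the node's structure by lymphotoxin.

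The allogeneic library held 3500 barcodes with 8415043 UMIs and the syngeneic library 7967 barcodes with 46486632 UMIs. After the cell filter, 2106 and 7957 barcodes remained, with medians of 3147 and 4917 UMIs, and the family took 12222 and 97108 UMIs. Allogeneic barcodes started at 150 UMIs and syngeneic ones at 3447, and 66 barcode sequences occurred in both. Haemoglobin transcripts took 9.11% of UMIs in the kept allogeneic barcodes and 0.114% in the syngeneic ones. Barcodes were assigned by marker UMIs (Cd3 genes with Cd4, Cd8 genes or Foxp3 for T cells, markers that include Cd79a, Cd79b and Ms4a1 for B cells), and 44.2% and 48.7% met no gate. Comparisons used 4 gates, given here as allogeneic then syngeneic barcodes: CD4-gated T (265 and 1052), CD8-gated T (377 and 2033), Foxp3-gated T (89 and 126) and B-gated (309 and 720). In these gates haemoglobin took 0.375 to 0.487% and 0.00340 to 0.00438% of UMIs. Levels are UMIs per 1000000 UMIs of the gate (CPM).

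The gates separated the family's transcripts along known lines. Of all gated syngeneic UMIs of Cd40lg, the T cell helper ligand, 82.7% lay in CD4-gated barcodes, and none of 463 lay in B-gated ones. Of Tnfrsf13c, the BAFF receptor BAFF-R, 79.5% of 2127 UMIs lay in B-gated barcodes, and of Cd40, the receptor for CD40 ligand on B cells and antigen-presenting cells, 73.7% of 574. The allogeneic shares were 89.5% of 38, 79.2% of 355 and 77.8% of 45 UMIs. Barcodes that met no gate held 66.1% of allogeneic and 67.1% of syngeneic Cd40lg UMIs. They held 11.5% and 48.2% of Tnfrsf13c UMIs, and 21.1% and 49.9% of Cd40 UMIs. The gates thus left out unlike parts of the Tnfrsf13c and Cd40 UMIs of the libraries. The part of this in the B-gated ratios was not tested. Tnfrsf13b, the receptor TACI for BAFF and APRIL, was spread more widely, with 54.0% of 1479 syngeneic and 39.1% of 156 allogeneic gated UMIs in B-gated barcodes. Cd27, a costimulatory receptor of T cells and the receptor for CD70, lay mainly in the CD8 gate (64.2% and 45.8%) and the CD4 gate (27.8% and 31.9%). These shares follow the number of barcodes in each gate as well as the level within it.

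**Figure D1:**
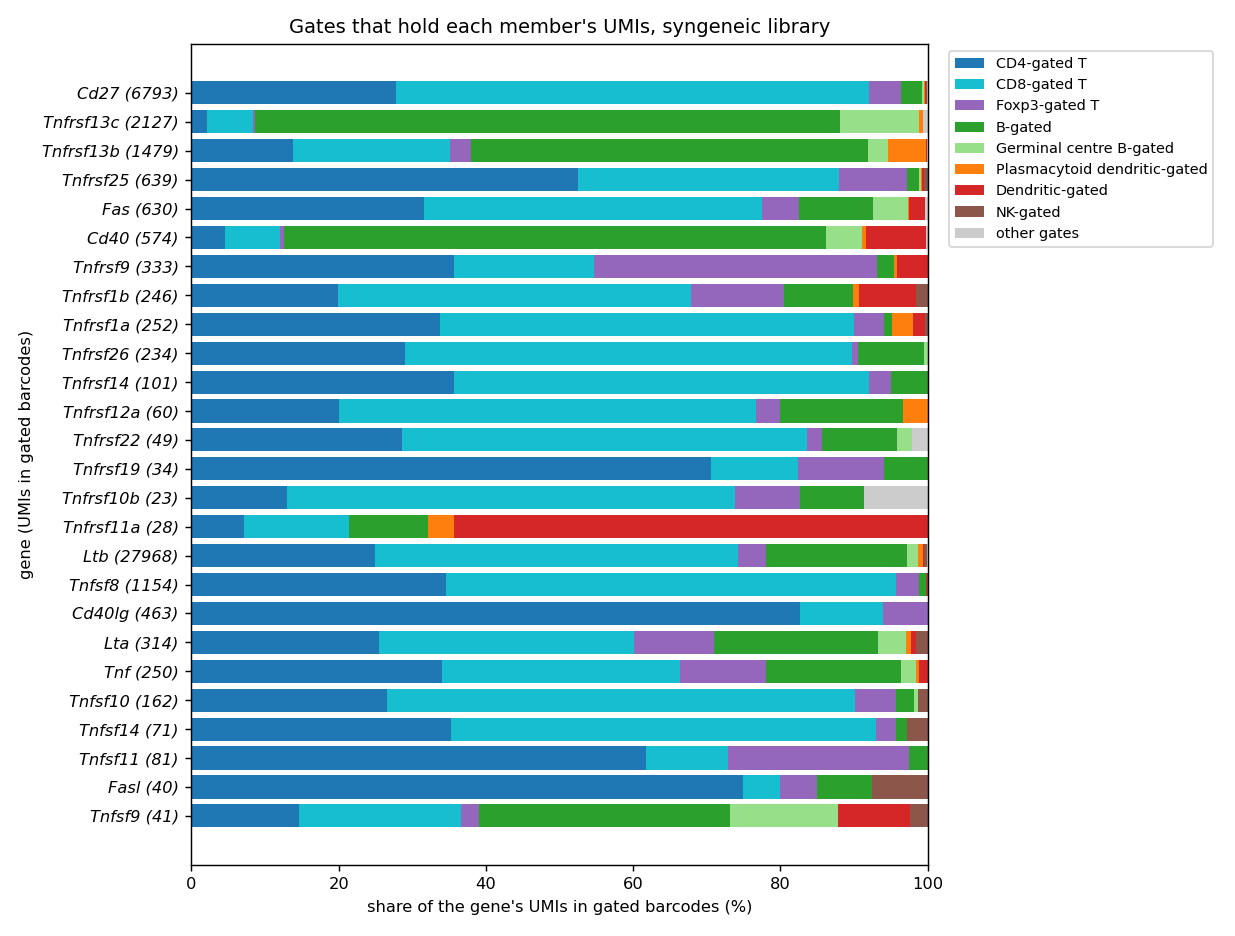
Horizontal bars give, for each member with at least 20 UMIs in gated syngeneic barcodes, the percentage of those UMIs in each gate, and the number beside each symbol is that UMI total. Tnfrsf13c and Cd40 lie mostly in B-gated barcodes (79.5% and 73.7%), Cd40lg in CD4-gated ones (82.7%), and Tnfrsf11a in dendritic-gated ones.

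Among members with at least 20 UMIs over both libraries in a gate, a difference of at least 2-fold in CPM was counted. In CD4-gated barcodes 2 of 21 members were at least 2-fold higher in the allogeneic library, where 8.87% of 9098 genes were, and 5 were at least 2-fold lower, where 5.87% of genes were. The CD8 gate had 2 of 20 members higher (8.02% of genes) and 6 lower (5.74%). The Foxp3 gate had 0 of 12 higher (10.3%) and 3 lower (5.42%), and the B gate had 0 of 10 higher (10.5%) and 3 lower (8.33%). The median log2 ratio of the members, allogeneic over syngeneic, was -0.14, -0.02, -0.58 and -0.60 in the CD4, CD8, Foxp3 and B gates, beside 0.09, 0.03, 0.09 and 0.04 over all genes. The share of members higher was thus near that of all genes in the CD4 and CD8 gates, and the share lower was above it in all 4 gates. Of the 17 lower calls, 8 had a counting interval that reached 0.

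**Figure D2:**
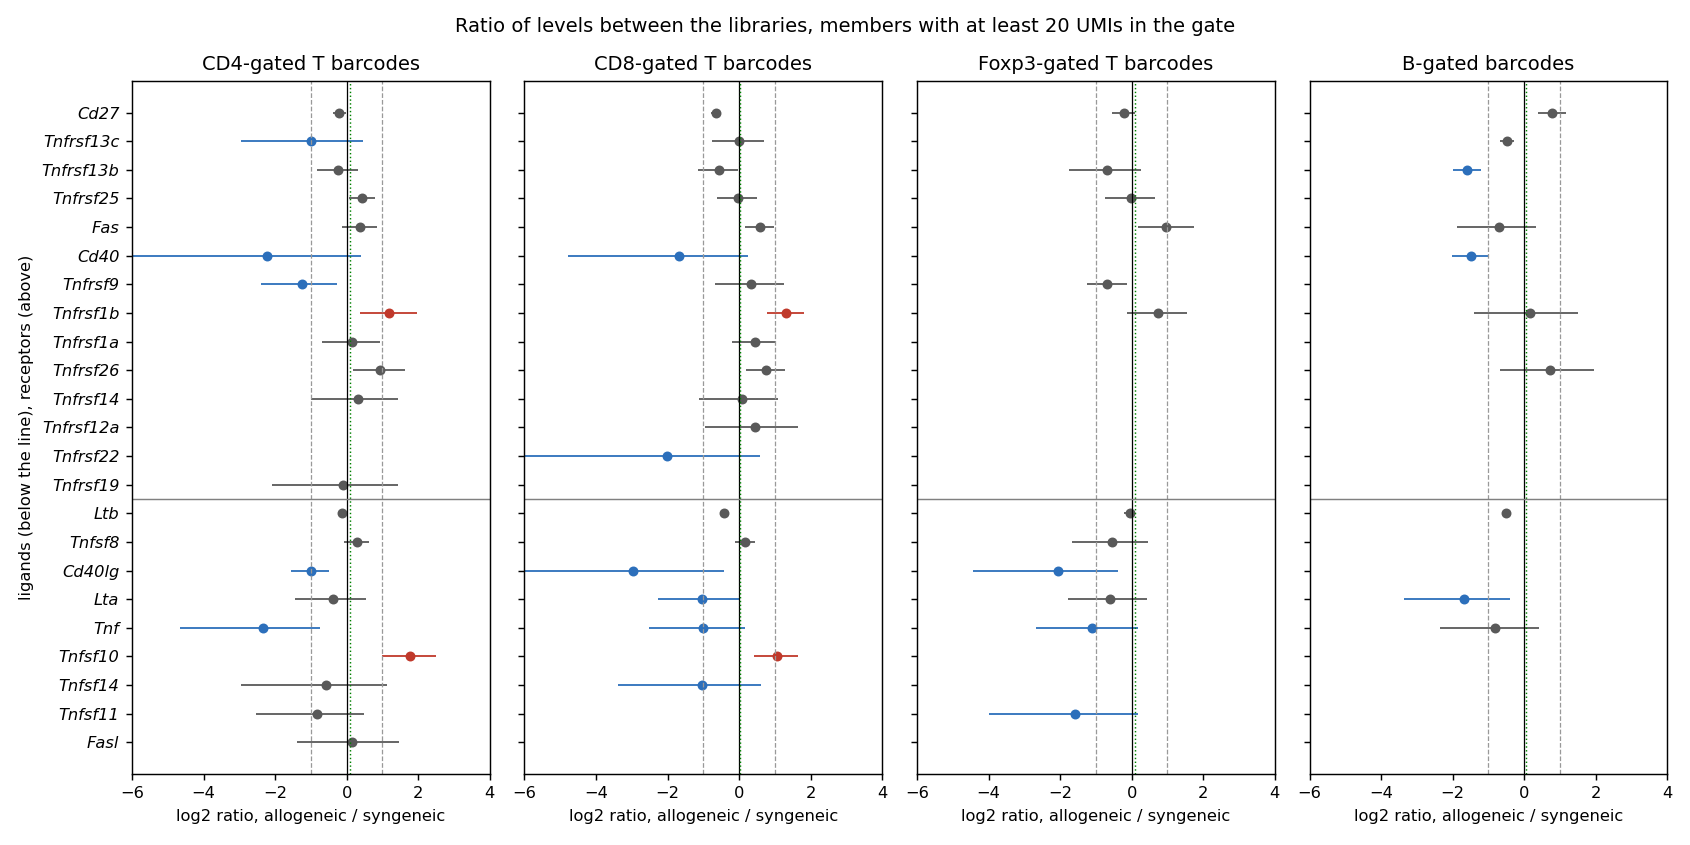
Points give the log2 ratio of CPM, allogeneic over syngeneic, for each member with at least 20 UMIs in the gate, and lines the 95% counting intervals, which run off the axis at the left for 3 ratios. Red and blue mark ratios at least 2-fold higher and lower, dashed lines the 2-fold limits, and the green dotted line the median of all genes. Tnfsf10 and Tnfrsf1b lie to the right in the CD4 and CD8 gates, and Cd40, Tnfrsf13b and Lta to the left in the B gate.

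Both members that were at least 2-fold higher were the same in the CD4 and CD8 gates: Tnfsf10, the death ligand TRAIL, and Tnfrsf1b, the TNF receptor TNFR2, which lacks a death domain and costimulates T cells. Tnfsf10 stood at 28.4 CPM (26 UMIs) in allogeneic and 8.37 CPM (43 UMIs) in syngeneic CD4-gated barcodes, a log2 ratio of 1.76 (0.998 to 2.49). In CD8-gated barcodes it stood at 18.9 and 9.12 CPM (32 and 103 UMIs), a log2 ratio of 1.05 (0.43 to 1.63). The allogeneic UMIs were spread over 21 CD4-gated and 30 CD8-gated barcodes, with at most 2 in any of them. The Foxp3 gate held 7 allogeneic and 9 syngeneic Tnfsf10 UMIs and the B gate 5 and 4, too few for a comparison.

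Tnfrsf1b had 21.8 CPM (20 UMIs) in allogeneic and 9.54 CPM (49 UMIs) in syngeneic CD4-gated barcodes, a log2 ratio of 1.19 (0.36 to 1.97). The CD8 gate had 25.9 and 10.5 CPM (44 and 118 UMIs), a log2 ratio of 1.31 (0.78 to 1.82). Foxp3-gated barcodes, which carry the marker of regulatory T cells, had a higher level in both libraries, 71.5 and 43.3 CPM, and their log2 ratio of 0.72 had an interval from -0.12 to 1.55. That ratio was -1.13 on 4 and 15 UMIs after thinning before gating. Within a library, the Foxp3-gated level was 3.28-fold the CD4-gated one in the allogeneic and 4.53-fold in the syngeneic library. In B-gated barcodes Tnfrsf1b was low and similar, at 7.79 and 6.89 CPM (log2 ratio 0.18, -1.41 to 1.51).

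The higher CD8-gated ratios of both genes stayed past 2-fold in each of 8 alternative processings, with ranges of 1.01 to 1.26 for Tnfsf10 and 1.15 to 1.34 for Tnfrsf1b. The CD4-gated ratios did not. Among CD4-gated barcodes at least as deep as the lowest syngeneic one, Tnfrsf1b had a log2 ratio of 0.10 on 5 allogeneic UMIs, and Tnfsf10 one of 1.97. After every barcode was thinned to 1500 UMIs, Tnfsf10 had 2 allogeneic UMIs in the gate and a log2 ratio of -0.0072. Both members were also above 2-fold among T-gated barcodes with no UMI of Cd4, the Cd8 genes or Foxp3 (410 and 848 barcodes), at log2 1.60 (0.81 to 2.38) for Tnfsf10 and 1.63 (1.04 to 2.23) for Tnfrsf1b.

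Sequences are shown for 3 members that had large ratios on more than a few UMIs and a sequence in the reference set. These are the 250 bases upstream of the starts of Tnfsf10, Tnfrsf1b and Tnfrsf13b, the last of which was lower in the B gate. They come from RefSeq (GRCm38.p6, the C57BL/6J reference, whereas the recipients were BALB/c) and run 5′ to 3′ on the gene's strand, ending at the base before the start. Capitals mark matches to a search on both strands for 3 patterns: GAAA repeated after a gap of 2 bases (an interferon response element core), GGG and TTTCC parted by 2 bases (an NF-kB site core), and TTCNNNGAA (a STAT site core).
Tnfsf10, chr3:27316827-27317076, plus strand: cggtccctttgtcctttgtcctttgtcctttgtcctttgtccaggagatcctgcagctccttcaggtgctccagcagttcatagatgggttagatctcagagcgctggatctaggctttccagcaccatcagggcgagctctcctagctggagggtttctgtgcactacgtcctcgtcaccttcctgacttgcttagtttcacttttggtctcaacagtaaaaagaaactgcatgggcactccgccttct
Tnfrsf1b, chr4:145246871-145247120, minus strand: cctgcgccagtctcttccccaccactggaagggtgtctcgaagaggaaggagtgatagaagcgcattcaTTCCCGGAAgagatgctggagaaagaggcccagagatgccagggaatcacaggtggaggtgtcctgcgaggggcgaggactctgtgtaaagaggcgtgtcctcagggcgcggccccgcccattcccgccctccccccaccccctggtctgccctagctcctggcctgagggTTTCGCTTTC
Tnfrsf13b, chr11:61126505-61126754, plus strand: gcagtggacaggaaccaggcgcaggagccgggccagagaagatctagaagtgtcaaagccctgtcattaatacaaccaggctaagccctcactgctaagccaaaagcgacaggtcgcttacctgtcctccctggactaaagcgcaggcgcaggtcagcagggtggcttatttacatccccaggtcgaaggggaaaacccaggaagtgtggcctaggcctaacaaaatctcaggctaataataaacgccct

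Tnfrsf1b carried a match to the interferon element from base 10 to base 1 before its start, read on the other strand, and a match to the STAT core from base 181 to base 173. Those 2 matches do not overlap. The Tnfsf10 and Tnfrsf13b windows held none of these letters, which says nothing of the factors. RefSeq windows were found for 29 of the 40 members, and not for Cd40, which was also lower in the B gate, or Cd40lg. The interferon element letters occurred in 3 of the 29 members (Tnfrsf1b, Tnfrsf14 and Tnfsf13b) and in 2.98% of 32851 windows of all genes. The NF-kB letters occurred in 3 of the 29 members (Ltb, Tnfrsf25 and Tnfrsf9) and in 1.41% of all windows, and the STAT letters in 7 of 29 members and 7.02% of all windows. Members were counted as genes with a match in any of their windows, but all genes as single windows, so these shares are not alike. Of the members with a match, Tnfrsf25, Tnfrsf9 and Tnfsf13b had more than 1 window. A match is a description of the letters and not a bound site.

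Tnf and Lta, ligands that can be released as soluble cytokines, rested on at most 11 allogeneic UMIs in each gate. Tnf, the founding cytokine of the family, had 3 UMIs (3.27 CPM) in allogeneic and 85 UMIs (16.6 CPM) in syngeneic CD4-gated barcodes, a log2 ratio of -2.34 (-4.65 to -0.74). It was also below in the other 3 gates, at 3.54 and 7.17 CPM in the CD8 gate, 18.6 and 40.5 CPM in the Foxp3 gate, and 7.79 and 13.8 CPM in the B gate, each with an interval that reached 0. Allogeneic Tnf rested on 3 to 6 UMIs in each of these gates. By contrast, the 12 allogeneic neutrophil-gated barcodes held 13 Tnf UMIs (83.7 CPM, 44.5 to 143), which is 35.1% of the gated allogeneic total of 37. No syngeneic barcode passed that gate, so the level there cannot be compared.

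Lta encodes lymphotoxin alpha, which is secreted alone or joins lymphotoxin beta at the membrane. It stood at 6.49 CPM (5 UMIs) in allogeneic and 21.0 CPM (70 UMIs) in syngeneic B-gated barcodes, a log2 ratio of -1.69 (-3.36 to -0.40). In the CD8 gate it stood at 4.71 and 9.65 CPM (-1.03, -2.28 to -0.0041), while the CD4 and Foxp3 ratios of -0.38 and -0.61 had intervals across 0. T-gated barcodes with no co-receptor or Foxp3 UMI went the other way, at 32.2 and 16.7 CPM, a log2 ratio of 0.95 (0.36 to 1.53). The lower allogeneic level of the CD8 gate was therefore not seen in these T-gated barcodes.

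Ltb, the membrane anchor of lymphotoxin and a signal for lymph node structure, had the most UMIs of the family in all 4 gates. Its CPM was 1228 and 1355 in the CD4 gate, 913 and 1222 in the CD8 gate, 1430 and 1488 in the Foxp3 gate, and 1137 and 1606 in the B gate. The log2 ratios were -0.14, -0.42, -0.06 and -0.50, and only the Foxp3 interval (-0.22 to 0.10) reached 0. All 4 ratios were negative and none passed 2-fold. Ltbr, the lymphotoxin beta receptor of stromal and myeloid cells, had 19 allogeneic and 10 syngeneic UMIs in all kept barcodes, and 4 of the 8 gated allogeneic ones lay in neutrophil-gated barcodes.

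Cd40lg, on which T cell help to B cells depends, had 37.1 CPM (34 UMIs) in allogeneic and 74.6 CPM (383 UMIs) in syngeneic CD4-gated barcodes (log2 ratio -1.01, -1.56 to -0.50). The Foxp3 gate had 9.32 and 39.1 CPM (3 and 28 UMIs), a log2 ratio of -2.07 (-4.43 to -0.37). The CD8 gate had 1 and 52 UMIs (0.589 and 4.60 CPM, log2 ratio -2.97, -8.30 to -0.42). The gene was below in all 3 T gates, and its CD4-gated ratio sat at the 2-fold limit, with a range of -1.38 to -0.79 over the alternatives. Within a library, the CD4-gated level exceeded the CD8-gated one 62.9-fold in the allogeneic library, on that single CD8-gated UMI, and 16.2-fold in the syngeneic library. Thinned to 1500 UMIs a barcode, 5.06% (2.72 to 8.49%) of allogeneic and 9.89% (8.15 to 11.8%) of syngeneic CD4-gated barcodes had a Cd40lg UMI, against 12.8% and 28.1% before thinning. No UMI fell in any of the 309 and 720 B-gated barcodes, which serve as the background, at median depths of 2310 and 4071 UMIs beside 3292 and 4442 in the CD4 gate.

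Among the other costimulatory ligands, Tnfsf11 and Tnfsf14 had few allogeneic UMIs in the gates compared. Tnfsf8, the ligand of CD30, was almost limited to T gates, with 94.9 and 77.7 CPM in the CD4 gate and 70.1 and 62.4 CPM in the CD8 gate, beside 1.30 and 3.60 CPM in the B gate. Its log2 ratios of 0.29 (-0.06 to 0.63) and 0.17 (-0.12 to 0.45) in the CD4 and CD8 gates had intervals that reached 0. The Foxp3 gate had 34.2 and 50.25 CPM (11 and 36 UMIs), a log2 ratio of -0.56 (-1.68 to 0.45). T-gated barcodes with no co-receptor or Foxp3 UMI had 127 and 245 Tnfsf8 UMIs, a log2 ratio of 0.60 (0.28 to 0.91). Tnfsf11, the osteoclast and lymph node factor RANKL, had 5 and 50 UMIs in the CD4 gate (5.45 and 9.74 CPM) and 3 and 20 in the Foxp3 gate (9.32 and 27.9 CPM, log2 ratio -1.58, -3.98 to 0.17). In the syngeneic library its CD4-gated level was 12.2-fold its CD8-gated one. Tnfsf14, the ligand LIGHT, had 3 allogeneic UMIs in each of the CD4 and CD8 gates (log2 ratios -0.57 and -1.04, both across 0). T-gated barcodes with no co-receptor or Foxp3 UMI had 15 and 16 Tnfsf14 UMIs, a log2 ratio of 1.45 (0.33 to 2.56), and with no Cd4 UMI required the CD4-gated ratio was 0.82.

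Fasl, the ligand by which cytotoxic lymphocytes trigger Fas, had more UMIs in CD4-gated than in CD8-gated barcodes. Most of its UMIs lay in barcodes that met no gate, 84 of 124 in the syngeneic and 10 of 19 in the allogeneic library. The 10 syngeneic barcodes gated as natural killer cells held 3 Fasl UMIs (67.2 CPM, 13.9 to 196). The syngeneic library had 30 UMIs in 1052 CD4-gated barcodes and 2 in 2033 CD8-gated ones, a 33.0-fold difference in CPM, and the allogeneic library had 6 and 1. The 30 UMIs lay in 22 barcodes, with 13 of them in 5 barcodes and 6 in a single one. The CD4-gated levels of 6.54 and 5.84 CPM did not differ between the libraries beyond counting error (log2 ratio 0.16, -1.39 to 1.45).

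**Figure D3:**
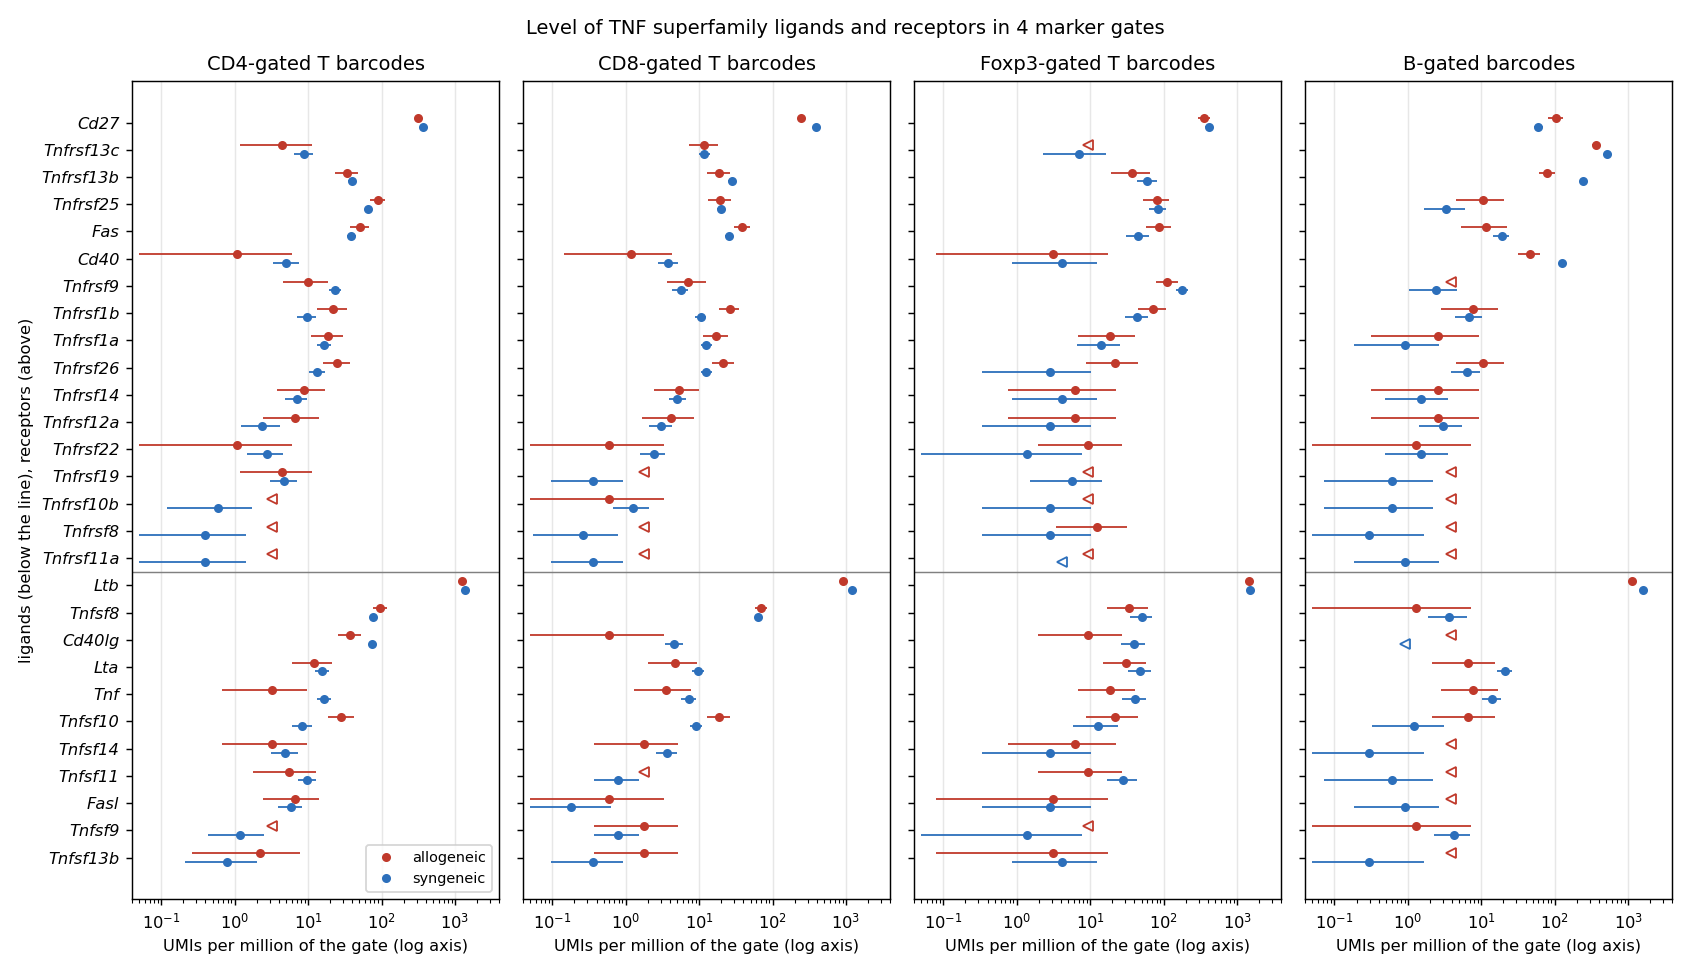
Points give the CPM of each of the 28 members with at least 50 UMIs, as UMIs per 1000000 of the gate on a log axis, for the allogeneic (red) and syngeneic (blue) library, with 95% Poisson intervals. Open triangles stand at the level of 3 UMIs where a library had none. Ltb and Cd27 have the most UMIs in the T gates, and Tnfrsf13b and Cd40 show separated points in the B gate.

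Among the receptors of B cells, Tnfrsf13b and Cd40 were lower in the allogeneic library and Tnfrsf13c less so. Tnfrsf13b had 79.2 CPM (61 UMIs) in allogeneic and 239 CPM (798 UMIs) in syngeneic B-gated barcodes, a log2 ratio of -1.60 (-2.00 to -1.22). Cd40 had 45.4 CPM (35 UMIs) and 127 CPM (423 UMIs), a log2 ratio of -1.48 (-2.02 to -0.98). Tnfrsf13c had 365 and 507 CPM (281 and 1690 UMIs), a log2 ratio of -0.47 (-0.66 to -0.29), and stayed within 2-fold in all 8 alternatives, from -0.87 to -0.37.

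Thinning to 1500 UMIs gave the same order in shares of barcodes. A Tnfrsf13b UMI was present in 7.90% (5.08 to 11.6%) of allogeneic and 29.3% (26.0 to 32.8%) of syngeneic B-gated barcodes, and in 17.5% and 61.4% before thinning. CD4-gated barcodes had thinned shares of 4.28% and 5.99% for Tnfrsf13b and 0.778% and 1.43% for Tnfrsf13c. For Cd40 the thinned shares were 6.53% (3.98 to 10.01%) and 17.6% (14.9 to 20.6%), beside 0.389% and 0.570% in CD4-gated barcodes, which should lack it; the unthinned B-gated shares were 10.7% and 42.4%. For Tnfrsf13c they were 44.0% (38.2 to 49.9%) and 47.8% (44.1 to 51.5%), with overlapping intervals, and 56.0% and 83.2% before thinning. Both lower ratios stayed past 2-fold in all 8 alternatives, from -2.09 to -1.21 for Tnfrsf13b and from -1.51 to -1.20 for Cd40. Only 30 of the 309 allogeneic B-gated barcodes reached the depth of the lowest syngeneic barcode, and the ratios nearest to 0 came from those 30. There the 3 receptors lay closer together, at -1.21 for Tnfrsf13b, -1.20 for Cd40 and -0.87 for Tnfrsf13c.

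The number of TACI transcripts for each BAFF-R transcript was compared within barcodes of a gate. There were 0.22 Tnfrsf13b UMIs for each Tnfrsf13c UMI (0.16 to 0.29) in allogeneic and 0.47 (0.43 to 0.51) in syngeneic B-gated barcodes. In the 30 deep allogeneic B-gated barcodes there were 15 UMIs of Tnfrsf13b and 40 of Tnfrsf13c, so the gap between the libraries was smaller there. Germinal centre B-gated barcodes had 0.17 in both libraries (8 to 47 and 39 to 230 UMIs). The ratio was 7.75 (2.74 to 30.2) in allogeneic and 4.53 (3.27 to 6.41) in syngeneic CD4-gated barcodes, and 1.60 (0.89 to 2.95) and 2.37 (1.93 to 2.92) in CD8-gated ones. It was 6.91 (3.65 to 14.4) in syngeneic plasmacytoid dendritic-gated barcodes, and the other gates held at most 12 Tnfrsf13c UMIs in a library. T-gated Tnfrsf13b levels were 33.8 and 39.7 CPM in the CD4 gate and 18.9 and 27.9 CPM in the CD8 gate. In the Foxp3 gate they were 37.3 and 60.02 CPM (12 and 43 UMIs), a log2 ratio of -0.69 (-1.75 to 0.26).

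The B gates of the libraries were alike in the antigen presentation gene Cd74 (22936 and 23730 CPM) and the B cell factor Pax5 (156 and 163 CPM), but not in the B cell surface gene Cd22 (218 and 429 CPM). The T cell genes Lck and Lat had 49.3 and 127 CPM and 79.2 and 57.3 CPM there. The part of these differences in the results for Tnfrsf13b and Cd40 was not tested. Small numbers of Cd40 UMIs in T gates were also lower in the allogeneic library, 1 and 26 in the CD4 gate and 2 and 43 in the CD8 gate, as were those of Tnfrsf13c in the CD4 gate, 4 and 45, with intervals across 0 for all 3. In the CD8 gate Tnfrsf13c was not lower, at 20 and 133 UMIs (11.8 and 11.8 CPM, log2 ratio 0.0014, -0.76 to 0.69). The B cell transcript Cd74 was lower, at 138 and 430 CPM in CD4-gated and 126 and 350 CPM in CD8-gated barcodes, and its part was not tested.

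Cd27 differed between the libraries in opposite directions in T and B gates. CD8-gated barcodes had 247 CPM (419 UMIs) in the allogeneic and 386 CPM (4359 UMIs) in the syngeneic library (log2 ratio -0.64, -0.79 to -0.50), and CD4-gated ones 318 and 368 CPM (-0.21, -0.39 to -0.03). Foxp3-gated barcodes had 351 and 410 CPM (113 and 294 UMIs), with an interval across 0 (-0.22, -0.55 to 0.09). B-gated barcodes had 103 CPM (79 UMIs) and 59.7 CPM (199 UMIs), a log2 ratio of 0.78 (0.39 to 1.16). After thinning, a Cd27 UMI was present in 13.1% (9.41 to 17.5%) of allogeneic and 7.78% (5.93 to 9.98%) of syngeneic B-gated barcodes, while before thinning the order was reversed, at 19.1% and 22.4%. Among the 30 deepest allogeneic B-gated barcodes the log2 ratio was -0.11 on 8 UMIs, so the B-gated direction did not hold in those barcodes. Cd27 overlaps Vamp1 on the opposite strand, and the sources used here do not say whether counting used the strand.

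Fas, the death receptor that removes activated lymphocytes, had positive log2 ratios in all 3 T gates and a negative one in the B gate, a difference that was not tested. The CD8 gate had 38.3 and 25.6 CPM (65 and 289 UMIs; log2 ratio 0.58, 0.17 to 0.97) and the Foxp3 gate 87.0 and 44.7 CPM (28 and 32 UMIs; 0.96, 0.18 to 1.74). The CD4 gate had 50.2 and 38.8 CPM and the B gate 11.7 and 18.9 CPM, with log2 ratios of 0.37 and -0.69 and intervals across 0. None of these passed 2-fold, and the CD4-gated ratio was -0.43 on 9 allogeneic UMIs with 1 UMI more required of each lineage. Tnfrsf1a, the TNF receptor TNFR1 with a death domain, had 18.5 and 16.6 CPM in the CD4 gate and 17.1 and 12.6 CPM in the CD8 gate, with intervals across 0. In B-gated barcodes it had 2 and 3 UMIs, and its CD8-gated level was 6.58-fold higher in allogeneic and 14.0-fold higher in syngeneic barcodes.

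Tnfrsf9, the costimulatory receptor 4-1BB, stood higher in the Foxp3 gate than in the CD4 gate of both libraries. Its Foxp3-gated level was 112 CPM (36 UMIs) in the allogeneic and 179 CPM (128 UMIs) in the syngeneic library, which was 11.4-fold and 7.71-fold the CD4-gated level. The Foxp3-gated log2 ratio between the libraries was -0.68 (-1.25 to -0.13), and 22 of the 36 allogeneic and 47 of the 128 syngeneic UMIs lay in 5 barcodes each. The Foxp3-gated barcodes differed in makeup as well: the checkpoint gene Ctla4 had 497 and 99.1 CPM, the regulatory T cell factor Ikzf2 401 and 592 CPM, and Il2ra 93.2 and 165 CPM. Their part in the Tnfrsf9 difference was not tested.

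In CD4-gated barcodes Tnfrsf9 stood at 9.81 and 23.2 CPM (9 and 119 UMIs), a log2 ratio of -1.24 (-2.40 to -0.27), and this direction depended on the gate. T-gated barcodes with no UMI of Cd4, the Cd8 genes or Foxp3 had 55.4 and 20.8 CPM (74 and 81 UMIs), a log2 ratio of 1.42 (0.94 to 1.89). With these added to the CD4 gate, which then needed no Cd4 UMI, the log2 ratio was 0.74 on 83 and 200 UMIs. The CD8 gate had 7.07 and 5.58 CPM (0.34, -0.68 to 1.25). Tnfrsf9 overlaps Camta1 on the opposite strand.

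Among the remaining receptors, Tnfrsf25, the receptor DR3 for TL1A, had 88.3 and 65.4 CPM in the CD4 gate (log2 ratio 0.43, 0.06 to 0.79) and 80.8 and 82.4 CPM in the Foxp3 gate. In the CD8 gate it had 19.4 and 20.01 CPM, so the CD4-gated level was 4.54-fold the CD8-gated one in the allogeneic and 3.27-fold in the syngeneic library. Its ligand TL1A, Tnfsf15, had 5 UMIs in all kept barcodes of both libraries. Tnfrsf26, a receptor gene of the mouse, had 25.1 and 13.2 CPM in the CD4 gate (0.92, 0.17 to 1.62) and 21.2 and 12.6 CPM in the CD8 gate (0.75, 0.18 to 1.29). In the B gate Tnfrsf26 had 10.4 and 6.30 CPM (0.72, -0.66 to 1.95). It lies in a cluster with its close relatives Tnfrsf22 and Tnfrsf23, and how reads were split among these relatives is uncertain. All 3 overlap E230032D23Rik on the opposite strand but do not overlap each other. Tnfrsf22 had 1 and 27 UMIs in the CD8 gate.

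Tnfrsf14 (HVEM, the receptor for LIGHT), Tnfrsf12a (the TWEAK receptor Fn14) and Tnfrsf19 (the orphan receptor TROY) were compared on few UMIs, and their ratios in the gates compared had intervals across 0. Tnfrsf14 had 8.72 and 7.01 CPM in the CD4 gate and 5.30 and 5.05 CPM in the CD8 gate, but 16 and 17 UMIs (log2 ratio 1.46, 0.38 to 2.53) in T-gated barcodes with no co-receptor or Foxp3 UMI. Tnfrsf12a had 4.12 and 3.01 CPM in the CD8 gate, and Tnfrsf19 had 4.36 and 4.67 CPM in the CD4 gate. In the syngeneic library 24 of the 34 gated Tnfrsf19 UMIs lay in CD4-gated barcodes. Tnfrsf8, which encodes CD30, Tnfrsf10b, the TRAIL receptor of the mouse, and Tnfsf13b, which encodes BAFF, had no gate with 20 UMIs. BAFF had 15 allogeneic and 35 syngeneic UMIs in all kept barcodes. Scaled to all kept UMIs of each library, and not to a gate, this was 1.95 and 0.754 CPM.

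Antigen-presenting barcodes were few but held transcripts of several ligands and receptors of the family. The 23 syngeneic dendritic-gated barcodes had 47 Cd40 UMIs (256 CPM, 188 to 340) and 9 of the 12 gated Cd70 UMIs, the ligand of CD27. They also held 18 of the 28 gated syngeneic UMIs of Tnfrsf11a, the receptor RANK for RANKL, and 14 Tnfrsf9 UMIs (76.3 CPM). The allogeneic library had 10 dendritic-gated barcodes with a median of 1198 UMIs, and 3 of its 4 gated Tnfrsf11a UMIs lay there. The 35 syngeneic plasmacytoid dendritic-gated barcodes had 76 Tnfrsf13b UMIs (304 CPM, 240 to 380), and no allogeneic barcode passed that gate. These gates were too small in the allogeneic library for a comparison.

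Of the 12 members under 50 UMIs, Tnfsf13, Tnfsf18 and Tnfsfm13 had none. Tnfsf13 encodes APRIL, and its gene and Tnfsf12, the gene for TWEAK (16 UMIs), lie within Tnfsfm13 on the same strand of chromosome 11 at 69682577 to 69696098 (GRCm38), with Tnfsf13os on the other strand. A level of 0 for Tnfsf13 can therefore not be read as absence of its transcript. Tnfsf4, the OX40 ligand, had 0 allogeneic and 42 syngeneic UMIs, and Cd70 had 0 and 24. The kept barcodes held 7677636 allogeneic and 46437189 syngeneic UMIs, so these counts do not compare levels directly. The soluble decoy receptor Tnfrsf11b had 6 UMIs, all in the allogeneic library.

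Signal carriers downstream of these receptors were read from a list of 44 genes: TRAF adaptors, death domain proteins, kinases, ubiquitin enzymes, NF-kB subunits and inhibitors, and the proteases that shed ligands and receptors. At least 2-fold higher in the allogeneic library were 6 of 42 genes in the CD4 gate, 3 of 43 in the CD8 gate, 6 of 35 in the Foxp3 gate and 5 of 41 in the B gate, and 1, 0, 1 and 2 were lower. The list's median log2 ratios were 0.13, 0.03, 0.31 and 0.15, beside the all-gene medians given above. Over all genes, 8.87%, 8.02%, 10.3% and 10.5% were higher and 5.87%, 5.74%, 5.42% and 8.33% lower in these gates. The list's shares higher were above those of all genes in the CD4 and Foxp3 gates and near them in the CD8 and B gates, and its shares lower were below those of all genes in all 4.

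Map3k8, a kinase that links TNF receptors to ERK, was above in all 4 gates. Its log2 ratios were 2.02 (1.14 to 2.88) in the CD4 gate, 2.58 (2.11 to 3.06) in the CD8 gate, 1.67 (0.61 to 2.77) in the Foxp3 gate and 1.76 (1.19 to 2.31) in the B gate. Tnfaip3, the NF-kB brake A20, had 39.3 and 9.93 CPM in the CD4 gate, 23.0 and 8.59 CPM in the CD8 gate and 65.3 and 9.77 CPM in the Foxp3 gate. In the B gate it had 12.98 and 11.69 CPM (log2 ratio 0.15, -1.02 to 1.18). Nfkbia, the inhibitor IkB alpha, had log2 ratios of 1.83 (1.70 to 1.95) and 1.31 (1.20 to 1.42) in the CD4 and CD8 gates. Its log2 ratio was 1.29 (1.07 to 1.51) in the Foxp3 gate, and it had 527 and 412 CPM in the B gate. The necroptosis kinase Ripk3 was below in the CD4 gate (14.2 and 29.2 CPM; -1.04, -1.99 to -0.23) and on 1 and 25 UMIs in the Foxp3 gate.

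In the B gate the linear ubiquitin ligase gene Rnf31 (48.0 and 16.5 CPM) and the TAK1 partner Tab2 (66.2 and 29.1 CPM) were above. Below were Bcl2a1b, a survival gene with near-identical copies whose reads may be split among them (28.6 and 96.2 CPM; -1.75, -2.45 to -1.13), and the inhibitor Nfkbie (25.9 and 69.2 CPM; -1.42, -2.15 to -0.76). Both went the other way in the Foxp3 gate, Nfkbie at 40.4 and 14.0 CPM (1.53, 0.23 to 2.88) and Bcl2a1b at 199 and 126 CPM (0.66, 0.18 to 1.14). Other carriers with many UMIs were close: Casp8, the caspase that Fas activates, had 124 and 119 CPM in the CD4 gate and 106 and 101 CPM in the CD8 gate, and the kinase Ikbkb 125 and 146 CPM in the B gate.

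**Figure D4:**
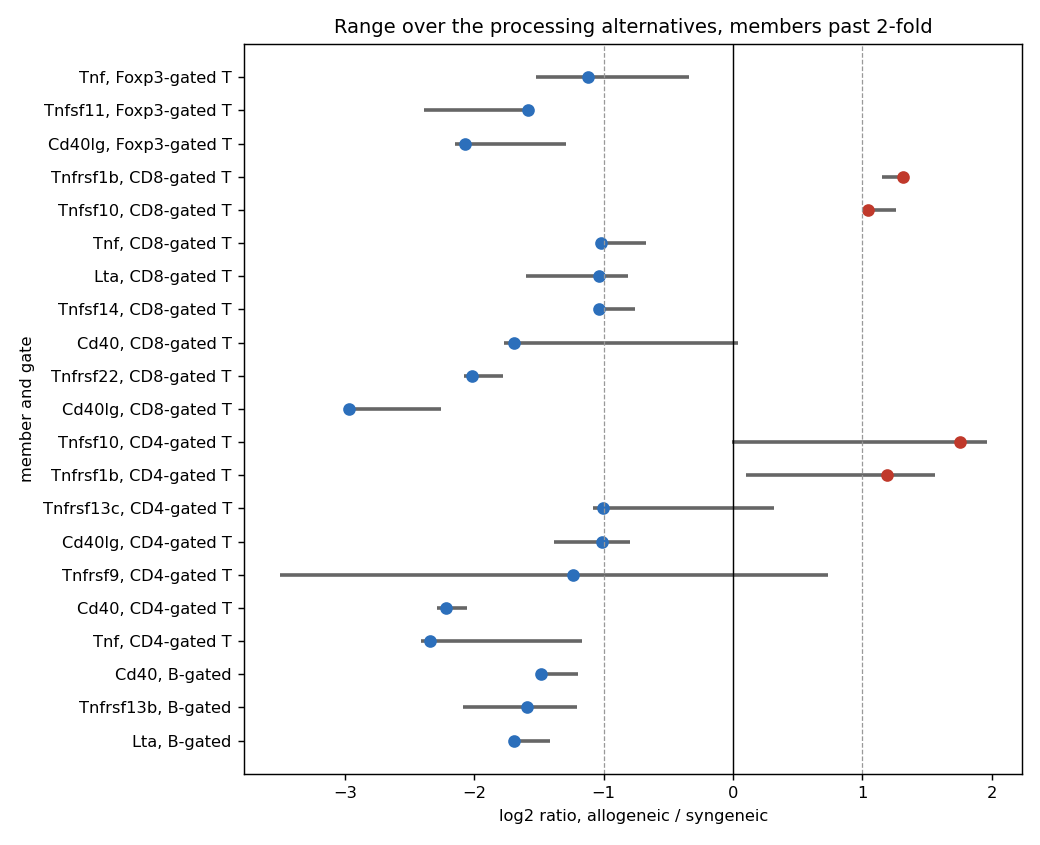
Points give the log2 ratio of CPM, allogeneic over syngeneic, for the 21 member and gate pairs past 2-fold (red higher, blue lower), and grey lines the range over the processing alternatives that gave a value. Both CD8-gated higher ratios and both lower B-gated ratios of Cd40 and Tnfrsf13b stay outside the dashed 2-fold limits, whereas Tnfrsf9, Tnfrsf1b and Tnfsf10 in the CD4 gate have wide ranges.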

How the data were processed

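Single immune cells of lymph nodes were measured in droplets, with 1 library per group. The authors deposited raw UMI counts per gene and barcode as whole numbers with no normalisation. Cell Ranger 2.2.0, STAR, Seurat 2.3.4 and mm10 are named in the submitters' processing notes. The sources used here do not say how barcodes were chosen for deposit. The cell filter required at least 200 genes and a mitochondrial share of at most 10%. No doublet caller was run; gates (1 of whose marker genes is not reported here) limited UMIs of other lineages, and barcodes meeting several gates (4 allogeneic, 38 syngeneic) were left out. Counts were summed per library and gate, with no pooling of cells as replicates. Ratios of CPM have exact conditional binomial intervals, levels exact Poisson intervals and shares exact Clopper-Pearson intervals, from scipy 1.17.1 with numpy 2.4.6 and pandas 2.3.3. UMIs set the precision: 1 UMI is 0.589 to 3.11 CPM in the allogeneic gates compared and 0.0885 to 1.40 CPM in the syngeneic ones. The floor for 0 UMIs was 3 UMIs over the gate.

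The members, gates and the signal list were chosen with earlier results of these data known. Members with at least 50 UMIs are described, with values where a gate used for comparison had at least 20. Of the signal list, the 3 highest and 3 lowest ratios past 2-fold per gate and at most 4 others with the most UMIs were eligible. Motifs, T-gated barcodes without co-receptor UMIs, contrasts between gates, receptor ratios and the spread over barcodes were chosen after values were seen, as were the members named under 50 UMIs. The 11 other settings chosen at the outset and 1 added after values were seen covered gates, depth, scaling, free RNA, filters and the fold.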

Additional observations from a re-analysis of the deposited data

Results flagged for a closer look

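Cd27, the costimulatory receptor of T cells, was marked because its ratio between the libraries had opposite signs in different gates, each with a counting interval that did not reach 0. The log2 ratio, allogeneic over syngeneic, was 0.78 in B-gated barcodes and -0.21 in CD4-gated T barcodes. In CD8-gated T barcodes it was -0.64, beside the same 0.78 in the B gate. With 1 library per group the difference between the gates was not tested. The B-gated value was 0.18 after thinning to 1500 UMIs and -0.11 among barcodes at least as deep as the lowest syngeneic one.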

How the results depend on the processing

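Of 21 member and gate pairs past 2-fold, 17 kept their sign and 11 stayed past 2-fold in every alternative that gave a value. Signs changed for Tnfrsf9 in the CD4 gate with no Cd4 UMI required (0.74) and, with barcodes thinned before gating, for Tnfrsf13c (0.31) and Tnfsf10 (-0.0072) in the CD4 gate and Cd40 in the CD8 gate (0.038), the last 3 on 1 or 2 allogeneic UMIs. Counts in the CD4 gate were 1 higher and 3 lower with stricter gates, 3 lower with no Cd4 UMI required, with only deep barcodes, with a minimum of 50 UMIs or without shared barcodes, and 0 and 0 after thinning. The CD4 median was -0.38 with stricter gates and 0.17 with no Cd4 UMI required. The CD8 gate had 3 lower with stricter gates, deep barcodes or the 50 UMI minimum, and 1 after thinning. The Foxp3 gate had 1 higher with deep barcodes, 0 lower after thinning or with the 50 UMI minimum, and 2 higher and 6 lower at a fold of 1.5. The B gate had 1 higher with deep barcodes, 1 higher and 5 lower with a minimum of 10 UMIs, and 2 higher and 5 lower at a fold of 1.5. The causes were not tested.

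In 19 settings a member had 0 UMIs in a library and got no value, a rule chosen after seeing that the floor reversed signs; 13 of them came from thinning, which left 121 allogeneic CD4-gated barcodes and raised the syngeneic B-gated ones from 720 to 1108. The free RNA profile was 64.4% haemoglobin and removed 0.583 to 0.756% of UMIs, so it bears little on lymphocyte RNA. No paired analysis was possible because each group has 1 library, and no library could be left out.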
